A study of Mus musculus with 50 samples.

Results

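The SLC25 family comprises carrier proteins, most of which move nucleotides, phosphate, organic acids, amino acids, cofactors or metal ions across the inner mitochondrial membrane. The carriers described here are the genes whose symbol begins with Slc25a and that reached at least 1 TPM (a transcript level corrected for transcript length and library size) in at least 8 of the 50 mice. Of 46 Slc25a genes in the tables, 39 met this rule, and 36 of these reached 1 TPM in all 50 mice. The members nearest to the limit were Slc25a13 (28 mice, mean 1.09 TPM), Slc25a53 (37 mice, 1.36 TPM) and Slc25a35 (49 mice, 3.51 TPM). The 7 genes outside it (Slc25a18, Slc25a21, Slc25a31, Slc25a41, Slc25a43, Slc25a48 and Slc25a54) reached 1 TPM in 0 mice. The highest single value among them was 0.566 TPM, for Slc25a43.

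Gastrocnemius, a mixed hind-limb muscle of mostly fast fibres, was sequenced from 50 wild type male C57BL/6JRj mice. Ages of 8, 18, 22 and 24 months were represented by 8 animals each, and ages of 26 and 28 months by 9 animals each, with a separate library for every animal. All mice were singly caged and fed the purified AIN93M diet. Time on the diet differed between the ages: animals sampled at 22 months or later had eaten it since they were about 18 months old, and those sampled at 8 and 18 months had been switched to it 2 or more months earlier. Age and diet history therefore cannot be told apart in comparisons with 8 months. The comparison of 28 with 22 months lies within 1 diet regime. Even there the older mice had eaten the diet for longer, so age and time on the diet cannot be told apart. Animals with overt illness or tumours had been left out by the study. Total counts per mouse ranged from 13607229 to 21267375. The summed level of 7 skeletal muscle markers lay between 110900 and 177510 TPM over the 50 mice. In bulk tissue, fewer cells of a type and less RNA per cell cannot be told apart.

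SLC25 proteins share a repeated membrane module, and most of them sit in the inner mitochondrial membrane, where they switch between a state open to the cytosol and a state open to the matrix. In skeletal muscle the family is known above all for the exchange of ADP for ATP and the import of phosphate, which feed the ATP synthase and return its product to the myofibrils. Other carriers link the cytosol to the citric acid cycle, bring acylcarnitines in for oxidation, or supply the matrix with cofactors such as S-adenosylmethionine, NAD and glutathione.

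Slc25a4, the ADP/ATP carrier 1 (Ant1) of heart and muscle, was by far the most abundant member. At 8 months its mean level was 4795 ± 412 TPM (SD, n = 8), which was 64.2% of the summed TPM of all 39 members. The phosphate carrier Slc25a3 followed with 1163 ± 182 TPM (15.6%). The oxoglutarate-malate carrier Slc25a11, part of the malate-aspartate shuttle, contributed 5.43%, and the aspartate-glutamate carrier Slc25a12 (aralar) of the same shuttle contributed 3.92%. The carnitine-acylcarnitine carrier Slc25a20 made up 1.33%. The summed level of the 39 members was 7469 ± 616 TPM at 8 months, 7219 ± 470 at 18 months, 6882 ± 469 at 22 months, 6637 ± 487 at 24 months, 6359 ± 577 at 26 months and 5945 ± 839 TPM at 28 months. Without Slc25a4 the sum was 2675 ± 280 TPM at 8 months and 2411 ± 210 TPM at 28 months, so that most of the difference between the sums lay in Slc25a4.

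Between 28 and 8 months, 13 of the 39 carriers fell and 1 rose at FDR < 0.01 (edgeR's quasi-likelihood test, 1 fit over the 6 ages). Taken as a share, 35.9% of the members were called, against 39.6% of all 12586 genes tested, so the frequency of calls was close to the background. By direction, 33.3% of the members were lower against 18.7% of all genes, and 2.56% were higher against 21.0% of all genes. The median log2 fold change over the 39 carriers was -0.27, beside 0.01 over all genes, and 27 of the 39 had a negative value. These shares and medians describe the family and were not tested against other genes. Among the carriers that fell were, from the largest to the smallest log2 fold change, Slc25a1, Slc25a10, Slc25a35, Slc25a15, Slc25a39, Slc25a23, Slc25a4, Slc25a26, Slc25a11, Slc25a14, Slc25a40 and Slc25a37. The carrier that rose was Slc25a28. The forest plot of fold changes sets the carriers named here beside the 25 that did not pass the threshold.

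**Figure D1:**
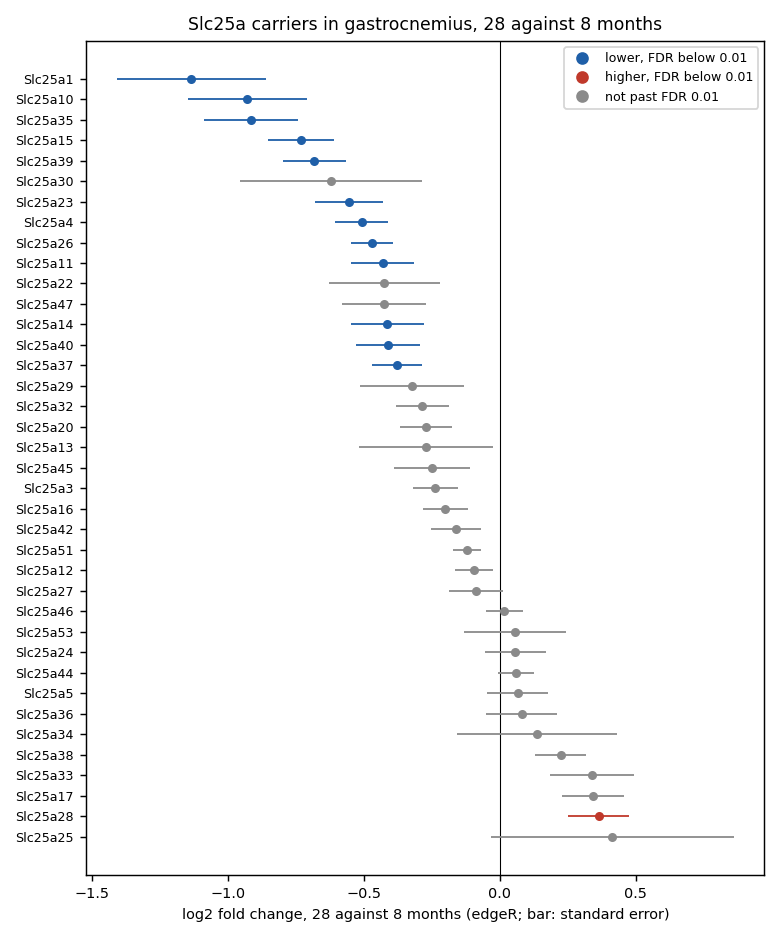
Log2 fold change between 28 and 8 months (horizontal axis) for 38 of the 39 Slc25a carriers, ordered by value, with bars for the standard error of the edgeR fit. Blue points mark the 12 plotted carriers that were lower and the red point the 1 that was higher at FDR < 0.01, with values from -1.13 (Slc25a1) to 0.36 (Slc25a28) among these, and grey points those that did not pass.

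Among the nucleotide and phosphate carriers, 2 of 8 fell between 28 and 8 months and 0 rose. Over all genes, 18.7% were lower and 21.0% higher. Slc25a4 (GRCm38 chr8:46206797-46211284, minus strand) had its lowest, median and highest mouse at 4349, 4720 and 5628 TPM at 8 months. The corresponding levels were 4173, 4697 and 5121 TPM at 18 months and 3826, 4290 and 4830 TPM at 22 months. They were 3364, 4303 and 4375 TPM at 24 months, 3180, 4051 and 4404 TPM at 26 months and 2716, 3619 and 4692 TPM at 28 months. At 28 months 8 of 9 mice lay below every 8 months-old mouse, and the exception was replicate 3 at 4692 TPM. Slc25a4 was 1.42-fold lower at 28 than at 8 months (log2 fold change -0.51, SE 0.10, FDR 3.69e-05).

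The phosphate carrier Slc25a3 (chr10:91116574-91124059, minus strand) serves the same ATP cycle. It ranged from 1024 through a median of 1110 to 1572 TPM at 8 months and from 884 through 1004 to 1223 TPM at 28 months. The groups overlapped, with 5 of 9 mice of 28 months below all mice of 8 months. Its log2 fold change of -0.24 (SE 0.08) did not pass the threshold (FDR 0.0142 in edgeR). The calcium-regulated ATP-Mg/phosphate carriers adjust the adenine nucleotide content of the matrix. Slc25a23 fell from 18.5 ± 1.50 TPM (n = 8) to 12.7 ± 3.57 TPM (n = 9), with a log2 fold change of -0.55. Slc25a24 (log2 fold change 0.06, FDR 0.690) and Slc25a25 (0.41, FDR 0.445) did not pass. The pyrimidine nucleotide carriers Slc25a33 (0.34, FDR 0.0587) and Slc25a36 (0.08, FDR 0.625), which supply mitochondrial DNA and RNA synthesis, did not pass either.

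Among the carriers of organic acids and redox shuttles, 3 of 6 fell between 28 and 8 months, beside 18.7% of all genes lower. All 6 had a negative log2 fold change, with a median of -0.43. Slc25a11 (chr11:70644196-70647479, minus strand) ranged from 364 through a median of 391 to 504 TPM at 8 months. Its levels were 317 to 483 TPM at 18 months, 330 to 531 TPM at 22 months, 307 to 430 TPM at 24 months and 235 to 406 TPM at 26 months. At 28 months it ranged from 232 through 316 to 476 TPM. Of 9 mice at 28 months, 7 lay below all mice of 8 months, and the highest was again replicate 3. The log2 fold change was -0.43 (SE 0.12, FDR 0.00173, edgeR). The aspartate-glutamate carrier Slc25a12, which works with Slc25a11 in the malate-aspartate shuttle, was at 293 ± 29.96 TPM (n = 8) and 286 ± 27.3 TPM (n = 9), with a log2 fold change of -0.09 (FDR 0.264).

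The citrate carrier Slc25a1 (chr16:17925223-17928219, minus strand) exports citrate for cytosolic lipid synthesis, and the dicarboxylate carrier Slc25a10 (chr11:120491840-120499187, plus strand) exchanges malate or succinate for phosphate. Slc25a1 ranged from 6.52 through 13.7 to 24.4 TPM at 8 months, from 5.91 through 10.9 to 33.3 TPM at 18 months and from 3.31 through 7.65 to 14.9 TPM at 22 months. It ranged from 6.36 through 7.06 to 12.3 TPM at 24 months, from 3.86 through 6.50 to 9.16 TPM at 26 months and from 4.50 through 6.07 to 11.6 TPM at 28 months. The groups overlapped at each age, with 5 of 9 mice of 28 months below all mice of 8 months. Slc25a1 had the largest negative fold change of the family, 2.19-fold lower at 28 than at 8 months (log2 fold change -1.13, SE 0.27, FDR 0.000591).

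Slc25a10 ranged from 4.61 through 5.75 to 10.2 TPM at 8 months and from 1.13 through 3.21 to 7.11 TPM at 28 months. In between, its medians were 5.94, 5.40, 4.15 and 3.73 TPM at 18, 22, 24 and 26 months. At 28 months 8 of 9 mice were below all mice of 8 months, and replicate 3 was the exception at 7.11 TPM. The log2 fold change was -0.93 (SE 0.22, FDR 0.000474, edgeR).

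Most single adipocyte markers were also lower at 28 months. Their summed level was not, but Plin4, which rose, was its largest part at that age. Of 7 markers listed and tested, 5 fell and 1 rose between 28 and 8 months. Over all genes, 18.7% were lower and 21.0% higher. Adiponectin (Adipoq) was at 39.2 ± 15.6 TPM at 8 months (n = 8) and 14.9 ± 4.47 TPM at 28 months (n = 9), and Plin1, a lipid droplet coat protein, had a log2 fold change of -1.77. The summed level of the list was 168 to 562 TPM at 8 months (median 420) and 252 to 519 TPM at 28 months (median 425). Plin4, which muscle fibres also express, rose from 115 ± 51.7 to 279 ± 99.2 TPM. Of the 7 markers, 6 had a negative log2 fold change, and Cfd went from 180 ± 68.8 to 86.4 ± 24.5 TPM. At 18 months, replicate 5 had both the highest Slc25a1 level of all 50 mice (33.3 TPM) and the highest summed adipocyte level (636 TPM). At 28 months, replicate 3 had the highest Slc25a1 level of its age (11.6 TPM) and the lowest summed adipocyte level (252 TPM). Since Plin4 was the largest part of the sum at that age, a low sum need not mean lower levels of the other markers. The relation between Slc25a1 and the summed adipocyte level over the 50 mice was not tested. No marker of the list was at 0 in every mouse of an age, although leptin (Lep) reached 0 in some mice of 28 months. The part of fat cells in the Slc25a1 and Slc25a10 levels was not tested.

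Among the carriers of carnitine and amino acids, 1 of 5 fell, a share close to the 18.7% of all genes. In this group 0 rose, beside 21.0% of all genes. The ornithine carrier Slc25a15, which links the matrix to arginine and ornithine metabolism, went from 10.1 ± 0.891 TPM (n = 8) to 6.31 ± 1.91 TPM (n = 9), with a log2 fold change of -0.73 (SE 0.12, FDR 4.64e-06, edgeR), and 8 of 9 mice of 28 months lay below all mice of 8 months. Slc25a20, through which acylcarnitines enter for oxidation, was at 99.5 ± 13.3 TPM and 86.8 ± 16.9 TPM (log2 fold change -0.27, FDR 0.0149). The basic amino acid carrier Slc25a29 (-0.32, FDR 0.153), the glycine carrier Slc25a38 used in haem synthesis (0.22, FDR 0.0408) and the branched-chain amino acid carrier Slc25a44 (0.06, FDR 0.449) did not pass.

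Of the 11 carriers of cofactors, glutathione and iron, 5 were lower and 1 was higher at 28 months, beside 18.7% and 21.0% of all genes. Both glutathione importers fell, Slc25a39 from 73.3 ± 8.60 TPM (n = 8) to 48.3 ± 12.2 TPM (n = 9) and the much less abundant Slc25a40 from 3.36 ± 0.548 to 2.59 ± 0.539 TPM. Their log2 fold changes were -0.68 (FDR 6.35e-06) and -0.41 (FDR 0.00339). The Slc25a40 call was lost in 5 of 25 alternative settings. The S-adenosylmethionine carrier Slc25a26, which supplies the methyl donor of the matrix, fell by 0.47 on the log2 scale (SE 0.08, FDR 4.12e-06), from 29.2 ± 1.69 to 22.2 ± 2.69 TPM. The NAD carrier Slc25a51 was at 56.3 ± 4.06 and 56.2 ± 4.42 TPM (log2 fold change -0.12, FDR 0.0490), and the folate or FAD carrier Slc25a32 (-0.28, FDR 0.0125), the coenzyme A carrier Slc25a42 (-0.16, FDR 0.140) and Slc25a16 (-0.20, FDR 0.0378), which is linked to coenzyme A, did not pass. The peroxisomal cofactor carrier Slc25a17, which is not a mitochondrial protein, had a log2 fold change of 0.34 and lay just outside the threshold (FDR 0.0102).

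The mitoferrins import iron for haem and iron-sulfur cluster synthesis, and Slc25a37 (mitoferrin 1) is known for its part in red cell precursors whereas Slc25a28 (mitoferrin 2) serves most tissues. Slc25a28 (chr19:43663801-43674881, minus strand) ranged from 28.0 through 30.98 to 36.3 TPM at 8 months, from 26.0 through 32.7 to 39.2 TPM at 18 months and from 32.7 through 33.7 to 36.7 TPM at 22 months. It ranged from 32.0 through 34.7 to 35.8 TPM at 24 months, from 32.9 through 37.0 to 57.9 TPM at 26 months and from 29.9 through 43.2 to 59.2 TPM at 28 months. The range widened at the last ages, with 5 of 9 mice of 26 months and 6 of 9 of 28 months above all mice of 8 months and the rest within their range. Slc25a28 was 1.29-fold higher at 28 than at 8 months (log2 fold change 0.36, SE 0.11, FDR 0.00557), and this call was lost in 9 of 25 alternative settings.

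Slc25a37 (chr14:69241848-69285112, minus strand) moved in the other direction. It ranged from 8.47 through 11.2 to 14.7 TPM at 8 months and from 6.27 through 9.58 to 12.0 TPM at 28 months, and only 2 of 9 mice lay below all mice of 8 months. In between, its medians were 10.7, 10.9, 10.8 and 9.31 TPM at 18, 22, 24 and 26 months. The log2 fold change was -0.38 (SE 0.09, FDR 0.000760). Of the distinct 31-base words in its coding transcripts, 10.5% also occur in other genes, mainly in the gene model Gm16867, so part of its reads may have been shared with that gene. Among erythroid markers, 1 of 5 tested rose between 28 and 8 months and 0 fell, beside 21.0% of all genes higher and 18.7% lower. The 1 that rose was Alas2, the haem-forming enzyme of red cell precursors (log2 fold change 1.23). The summed level of the erythroid markers was 899.8 to 3293 TPM at 8 months and 587 to 6299 TPM at 28 months. The part of blood in the Slc25a37, Slc25a39 and Slc25a28 levels was not tested.

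The uncoupling protein-like carriers are named for their similarity to the thermogenic uncoupling protein, and their substrates in muscle are less settled. Slc25a14 fell from 2.51 ± 0.422 TPM (n = 8) to 1.98 ± 0.517 TPM (n = 9) with a log2 fold change of -0.41 (FDR 0.00834), a call that was lost in 16 of 25 alternative settings. Slc25a30 had a larger log2 fold change, -0.62, but with an SE of 0.33 it did not pass (FDR 0.113), and Slc25a27 was at -0.09 (FDR 0.467). Slc25a46, an outer membrane protein of mitochondrial dynamics, had a log2 fold change of 0.02 (FDR 0.842). Of the 5 members with no substrate assigned here, only Slc25a35 (chr11:68968131-68974365, plus strand) fell, a share close to the 18.7% of all genes. It ranged from 3.48 through 4.62 to 5.59 TPM at 8 months and from 0.989 through 2.47 to 3.79 TPM at 28 months, with medians of 4.05, 3.92, 3.64 and 3.18 TPM at 18, 22, 24 and 26 months. It lay below the whole 8 months-old group in 8 of 9 mice of 28 months. The log2 fold change was -0.91 (SE 0.17, FDR 3.18e-05, edgeR). The other members of this set, Slc25a34 (0.14), Slc25a45 (-0.25), Slc25a47 (-0.42, FDR 0.0187) and Slc25a53 (0.06), did not pass.

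**Figure D2:**
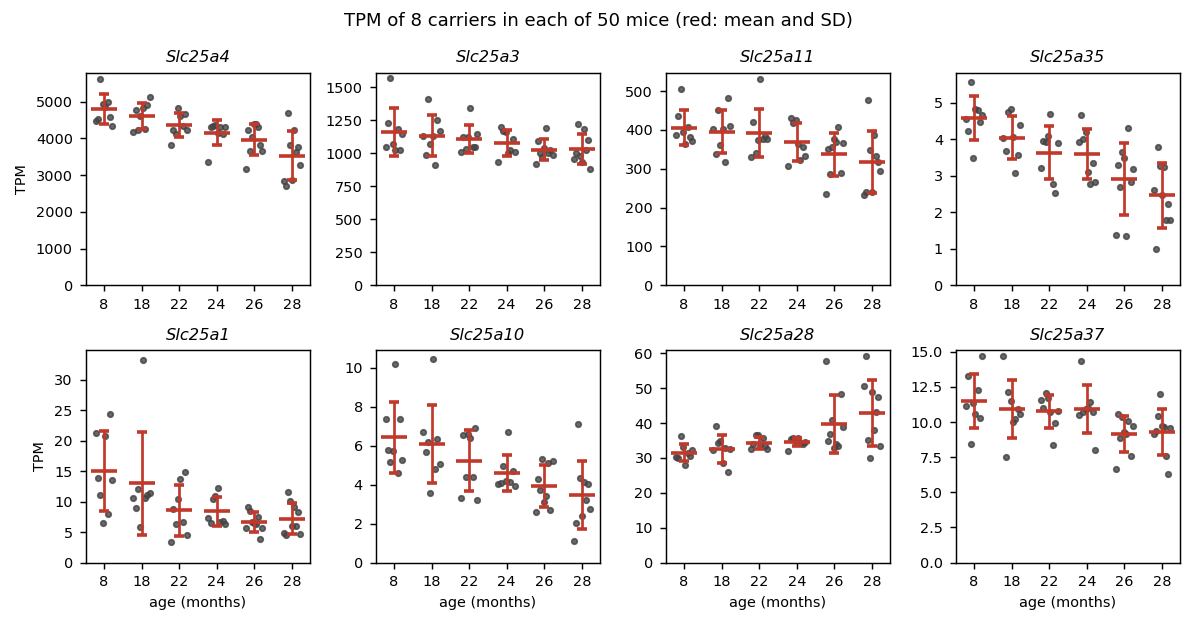
TPM (vertical axis, linear, from 0) of 8 carriers in each of the 50 mice by age in months, with the mean and SD in red. Slc25a4 goes from a mean of 4795 TPM at 8 months to 3534 TPM at 28 months, and Slc25a28 is the panel with a wider and higher spread from 26 months on.

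Individual mice of 1 age differed in how many of the fallers lay below the 8 months-old group. For each mouse, the number of the 13 fallers that lay below all mice of 8 months was counted, as a description, since the 13 were chosen from the same contrast. The same count was not made over all genes. The counts therefore have no background, and unchanged genes would also give some. At 28 months the counts were 12, 11, 3, 9, 10, 8, 11, 10 and 11 for replicates 1 to 9. Replicate 3 had the lowest of these counts. It was also the highest mouse of its age in 10 of the 13 carriers, which likewise was not counted over all genes. At 26 months the counts were 13, 10, 10, 7, 7, 7, 5, 12 and 7, at 24 months 9, 5, 1, 2, 5, 9, 8 and 11, and at 22 months 10, 2, 8, 3, 0, 6, 5 and 6. At 18 months they were 2, 5, 1, 4, 0, 7, 0 and 1. The ranges of neighbouring ages overlapped. Without replicate 3 of 28 months, 17 members were called between 28 and 8 months in place of 14, and without replicate 1 of 28 months 11 were called.

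The ages before 26 months gave 0 called carriers. In the comparison of 18 with 8 months, 0 of 39 members were called (0.0715% of all genes) and 1 had an unadjusted p under 0.05 in edgeR (3.65% of all genes). In the comparison of 22 with 8 months, 0 were called (0.0397% of all genes) and 4 had an unadjusted p under 0.05 (9.01% of all genes). In the comparison of 24 with 8 months, 0 were called (0.612% of all genes) and 9 had an unadjusted p under 0.05 (19.2% of all genes). DESeq2 also called 0 in each of these comparisons. At 24 months Slc25a1 had a log2 fold change of -0.86 (FDR 0.0818). The median log2 fold change of the 39 was -0.04 at 18 months, -0.11 at 22 months and -0.14 at 24 months.

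In the comparison of 26 with 8 months, 7 carriers fell and 0 rose, which is 17.9% of the members beside 18.4% of all genes in either direction with 8.54% of all genes lower and 9.84% higher. Among them were Slc25a1 (log2 fold change -1.20), Slc25a35 (-0.69), Slc25a15 (-0.60), Slc25a39 (-0.55), Slc25a26 (-0.39) and Slc25a37 (-0.34). Slc25a10 lay just outside with a log2 fold change of -0.71 (FDR 0.0108, edgeR). Slc25a4 was at -0.29 (FDR 0.0178) and Slc25a28 at 0.33 (FDR 0.0192). The comparisons share the mice of 8 months, so their values are not independent of each other.

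The comparison of 28 with 22 months, within 1 diet regime, gave 8 carriers that fell and 1 that rose, 23.1% of the members beside 27.7% of all genes. The share lower was 20.5% beside 11.5% of all genes, and the share higher 2.56% beside 16.2%. Among the carriers that fell were Slc25a14 (log2 fold change -0.59), Slc25a35 (-0.56), Slc25a15 (-0.54), Slc25a39 (-0.49), Slc25a23 (-0.49), Slc25a26 (-0.34) and Slc25a4 (-0.34, SE 0.10, FDR 0.00492). The peroxisomal carrier Slc25a17 rose (0.42, SE 0.11, FDR 0.00322, edgeR). Slc25a1 had a log2 fold change of -0.27 (SE 0.28, FDR 0.457) here, beside -1.13 between 28 and 8 months. Slc25a28 was at 0.26 (FDR 0.0529) and Slc25a25 at 1.23 (SE 0.45, FDR 0.0260), neither of which passed.

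**Figure D3:**
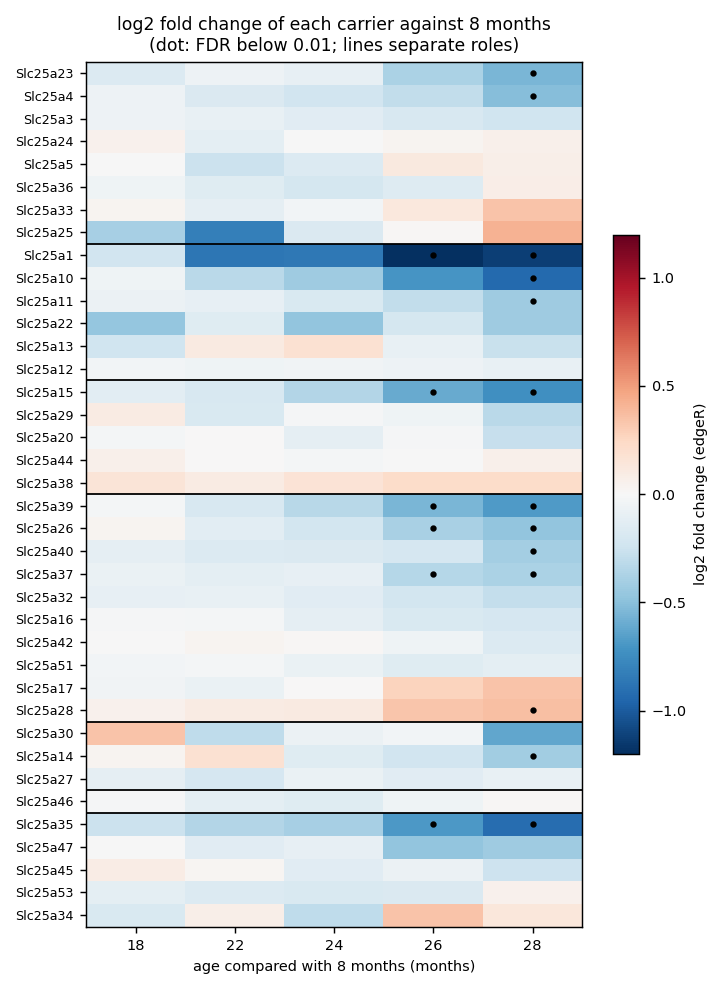
Log2 fold change of 38 of the 39 carriers (rows, grouped by role with black lines) at 18, 22, 24, 26 and 28 months against 8 months (columns), blue for lower and red for higher, with a dot where FDR < 0.01. There are 0 dots up to 24 months, 6 at 26 months and 13 at 28 months.

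Paralogs that carry the same or a similar substrate were compared within each mouse, as the difference of their log2(TPM + 1) values. Of 9 pairs with both genes among the members, 2 differed between 8 and 28 months (exact two-sided permutation test over 24310 splits of the mice, Benjamini-Hochberg adjusted over the 9 pairs, threshold 0.05). The difference Slc25a4 minus Slc25a5, muscle-type against general-type ADP/ATP carrier, was 6.02 ± 0.32 at 8 months (n = 8) and 5.41 ± 0.43 at 28 months (n = 9). It fell by 0.61 (exact p = 0.00596, adjusted p = 0.0268) and all 9 mice of 28 months lay below the mean of 8 months. Slc25a5 itself (chrX:36795651-36798807, plus strand) ranged from 51.7 through 77.7 to 106 TPM at 8 months and from 58.5 through 75.1 to 104 TPM at 28 months, with a log2 fold change of 0.07 (FDR 0.637). Its medians at 18, 22, 24 and 26 months were 75.5, 63.6, 68.5 and 82.2 TPM, so the groups overlapped throughout. The coding transcripts of Slc25a4 and Slc25a5 share no 31-base word with coding transcripts of other genes. Noncoding transcripts were not searched.

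The difference Slc25a28 minus Slc25a37, mitoferrin 2 against mitoferrin 1, was 1.39 ± 0.28 at 8 months (n = 8) and 2.08 ± 0.48 at 28 months (n = 9), a rise of 0.69 (exact p = 0.00428, adjusted p = 0.0268) with 8 of 9 mice of 28 months above the mean of 8 months. For Slc25a10 minus Slc25a11 the difference between ages was -0.42 (exact permutation p = 0.0225, adjusted p = 0.0674). The other 6 pairs had adjusted p from 0.188 to 0.691 in the exact permutation test. Both calls rest on few mice. Of the 17 mice, leaving out replicate 1, 4 or 7 of 8 months or replicate 1, 2 or 8 of 28 months left 0 pairs past the threshold, while the differences stayed between -0.68 and -0.52 for Slc25a4 minus Slc25a5 and between 0.60 and 0.79 for Slc25a28 minus Slc25a37.

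**Figure D4:**
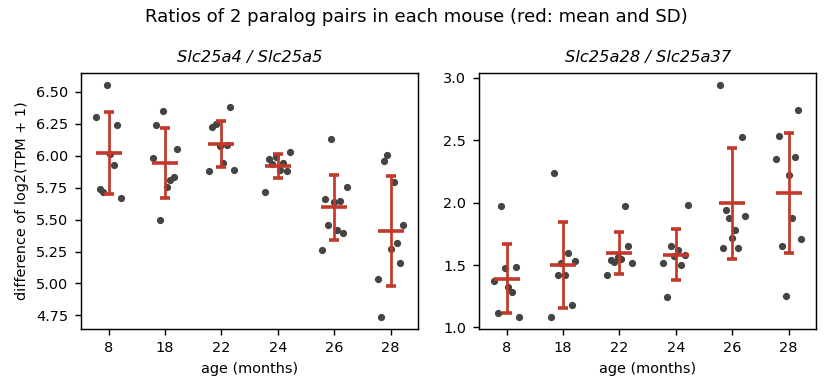
Difference of log2(TPM + 1) between the members of 2 paralog pairs (vertical axes) in each mouse by age in months, with the mean and SD in red. Slc25a4 minus Slc25a5 goes from a mean of 6.02 at 8 months to 5.41 at 28 months, and Slc25a28 minus Slc25a37 from 1.39 to 2.08.

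The carriers also differed in how much mice of the same age varied. The pooled SD within ages, on the log2(TPM + 1) scale, was largest for Slc25a25 (0.98), Slc25a30 (0.66), Slc25a34 (0.63) and Slc25a1 (0.53), and smallest for Slc25a51 (0.12) and Slc25a26 (0.12). Slc25a4 was at 0.16. Slc25a25, whose protein is regulated by calcium, ranged from 10.5 to 166 TPM among the 8 mice of 8 months and from 27.4 to 408 TPM among the 9 mice of 28 months. Slc25a30 ranged from 5.97 to 25.9 TPM at 8 months and Slc25a34 from 6.53 to 17.3 TPM. A change in these genes would need to be larger than in the others to pass the test.

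**Figure D5:**
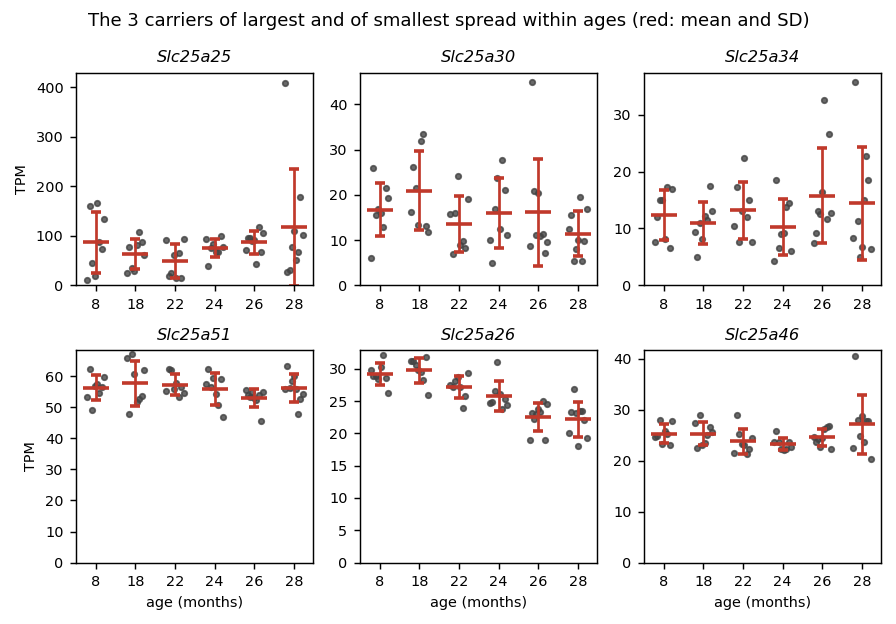
TPM (vertical axis, linear, from 0) in each of the 50 mice by age in months for the 3 carriers with the largest and the 3 with the smallest pooled SD within ages, with the mean and SD in red. Slc25a25 reaches 408 TPM in 1 mouse of 28 months, whereas Slc25a51 stays close to its mean of 56.0 TPM at all ages.

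Genes that work with the carriers were counted in the comparison of 28 with 8 months, in which 18.7% of all genes tested were lower and 21.0% higher. Of 19 other inner membrane transporters, 4 fell, a share close to that of all genes, and 0 rose. Among the 4 were Mpc2, a subunit of the mitochondrial pyruvate carrier (log2 fold change -0.78, SE 0.13), and the sideroflexin Sfxn5 (-0.49). Of 16 porins, the metabolite channels of the outer membrane, and components of the import machinery for carrier proteins, 5 fell and 0 rose, with Timm22, the insertase for carriers, at -0.48 (SE 0.12). Timm13, a small chaperone of the intermembrane space, was at -0.38. Of 24 enzymes of the malate-aspartate shuttle and citric acid cycle, 12 fell and 0 rose, led by Suclg1 (-0.48) and Dlat (-0.47). Dlat belongs to the pyruvate dehydrogenase complex.

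Of 16 genes of the ATP synthase and creatine phosphate system, which use the products of Slc25a4 and Slc25a3, 11 fell and 0 rose, led by the mitochondrial creatine kinase Ckmt2 (-0.94, SE 0.21) and the ATP synthase subunit Atp5j (-0.67, SE 0.12). Of 15 genes of the carnitine shuttle and fatty acid oxidation, 6 fell and 0 rose, led by the dehydrogenases Acads (-0.65) and Hadh (-0.53). The median log2 fold changes of these 5 lists lay between -0.43 and -0.12, beside 0.01 over all genes. Of 4 SLC25 proteins with other symbols that were tested (Ucp2, Ucp3, Mtch1 and Mtch2), 0 were called, with 0.51 for Ucp2 (FDR 0.0251) and -0.12 for Ucp3 (FDR 0.729). Of 11 regulators of oxidative genes, 3 rose and 2 fell. The nuclear receptor Esrra fell by 0.71 on the log2 scale (SE 0.16) and Ppard rose by 0.55 (SE 0.13).

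Promoters were searched for the core motifs of 3 such regulators on both strands, in windows of 250 bases before to 50 bases after the start (RefSeq, GRCm38.p6). They are shown for Slc25a4, Slc25a3 and Slc25a10, which hold the matches among the carriers named with values per age, and for the riser Slc25a28. Of the 39 members, 30 were matched by symbol. The ERR motif TCAAGGTCA was found in 0 of the 30 (0.466% of 27025 genes). The NRF1 motif (GCGC, any 2 bases, then GCGC) was in 2 (7.0% of genes), Slc25a3 and Slc25a10. The GABP motif CCGGAAG was in 6 (9.93% of genes), Slc25a3, Slc25a4, Slc25a17, Slc25a20, Slc25a25 and Slc25a38. Of the 9 fallers matched, 1 held the NRF1 letters and 1 the GABP letters. Of the 21 other members matched, 1 held the NRF1 letters and 5 the GABP letters. Motifs are in capitals, 5′ to 3′ along the gene, matches of different motifs do not overlap in them, and a match is a description of these letters. The windows are chr8:46211013-46211312 (minus strand) for Slc25a4, chr10:91123918-91124217 (minus) for Slc25a3, chr11:120491587-120491886 (plus) for Slc25a10 and chr19:43674832-43675131 (minus) for Slc25a28, which holds no match.
Slc25a4: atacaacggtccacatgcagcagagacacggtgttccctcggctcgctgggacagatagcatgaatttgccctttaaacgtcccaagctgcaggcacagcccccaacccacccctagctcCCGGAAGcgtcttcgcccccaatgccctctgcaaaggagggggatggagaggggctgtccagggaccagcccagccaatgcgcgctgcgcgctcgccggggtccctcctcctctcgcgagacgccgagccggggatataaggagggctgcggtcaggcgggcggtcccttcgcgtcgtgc
Slc25a3: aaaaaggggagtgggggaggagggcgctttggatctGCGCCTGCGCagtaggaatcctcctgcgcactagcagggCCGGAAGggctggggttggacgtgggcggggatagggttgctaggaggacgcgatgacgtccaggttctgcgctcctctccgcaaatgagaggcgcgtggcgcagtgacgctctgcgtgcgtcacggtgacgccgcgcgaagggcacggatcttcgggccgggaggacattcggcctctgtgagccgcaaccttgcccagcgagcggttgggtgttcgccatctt
Slc25a10: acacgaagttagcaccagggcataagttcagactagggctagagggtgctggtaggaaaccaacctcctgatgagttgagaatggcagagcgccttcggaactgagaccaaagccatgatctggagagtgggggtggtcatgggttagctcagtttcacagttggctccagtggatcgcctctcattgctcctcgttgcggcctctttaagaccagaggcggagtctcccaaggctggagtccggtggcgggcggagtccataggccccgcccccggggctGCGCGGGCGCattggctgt
Slc25a28: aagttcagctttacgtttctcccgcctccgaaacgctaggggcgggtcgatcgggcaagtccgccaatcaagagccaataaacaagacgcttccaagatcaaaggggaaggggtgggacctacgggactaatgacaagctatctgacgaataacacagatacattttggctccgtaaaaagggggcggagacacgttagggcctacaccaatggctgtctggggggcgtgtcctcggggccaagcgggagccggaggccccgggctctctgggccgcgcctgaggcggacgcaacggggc

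Markers of other cells and of nerve supply were counted in the same mice, beside 18.7% of all genes lower and 21.0% higher between 28 and 8 months. Of 8 denervation response genes tested, 7 rose between 28 and 8 months and 0 fell, and their summed level was 44.0 to 65.7 TPM at 8 months and 87.2 to 510 TPM at 28 months. Of 10 macrophage markers, 7 rose and 0 fell (summed 194 to 332 and 303 to 822 TPM). Of 7 fibroblast markers, 5 fell and 0 rose (750 to 1067 and 608 to 830 TPM). Of 8 slow fibre markers tested, 0 were called in edgeR (525 to 3167 and 1038 to 4804 TPM). However, 0 of these 8 had a negative log2 fold change, and their median was 0.55. The counts of endothelial markers were 1 of 7 lower, of Schwann cell markers 1 of 7 lower and of fast IIB fibre genes 1 of 7 higher and 1 lower. Of the 2 myosin genes Myh2 (fast IIA fibres) and Myh1 (fast IIX fibres), 1 was higher. Of 2 brown adipocyte genes tested, 1 was lower. The brown adipocyte list summed to 1221 to 1833 TPM at 8 months, yet its member Ucp1 was at 0 in every mouse of 18 and of 26 months. Whether that list reflects brown fat here was not tested. Lymphocyte markers were too low to be tested, with a summed level of at most 4.94 TPM in any mouse. The part of cell composition in the carrier levels was not tested.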

How the data were processed

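RNA of the gastrocnemius of 50 mice was sequenced as stranded, poly(A)-selected libraries. Per the labels and the study's methods, the authors trimmed reads with Cutadapt 1.9.1, dropped reads under 30 nucleotides and assigned the rest, with strand, to protein-coding Ensembl transcripts on GRCm38 with kallisto 0.43.1. Reads that fitted several transcripts were split between these in equal parts. The deposited counts are whole numbers per gene, not normalized, summed by the authors over transcripts. The deposited TPM values were made by the authors from counts per transcript length and library size, also summed per gene. Both tables hold 23880 genes, and every column was matched to a mouse by its label.

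The members and the gene lists were chosen with earlier results of these data known. Differential expression was tested on the counts with edgeR 4.0.16 under R 4.3.3 (genes reaching 1 CPM in 8 or more mice, TMM factors, 1 quasi-likelihood fit over 6 ages, Benjamini-Hochberg adjustment over 12586 genes, FDR < 0.01), and p-values measure the spread between animals. Paralog differences used log2(TPM + 1) and exact permutation tests. Alternatives were other scaling factors, no filter, fits on 2 ages, DESeq2 1.42.0, limma 3.58.1 on log2(TPM + 1) and log2(TPM + 0.1), a replicate block, and leaving out every mouse once. Named with values per age were the 3 most abundant members at 8 months, the 4 largest rises and the 4 largest falls that passed (only 1 rise did), and the members of paralog pairs that passed. From each list the 2 genes with the largest change past the threshold were named, and the few other genes given were chosen after their values were seen. Positions and shared 31-base words came from GENCODE vM21, which is on GRCm38 but is not the release the authors used. The procedures were tested on simulated data. No pair of libraries of an age agreed within sampling noise. The depth, at least 13607229 counts per mouse, limits mainly the members near 1 TPM, and no mouse was left out. The values of 1 member are not reported here, although it is included in the counts of members.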

Additional observations from a re-analysis of the deposited data

Results flagged for a closer look

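The values of 10 carriers were checked in each of the 6 ages for a mouse far from the others of its age. Of 60 such groups, 8 held a highest or lowest mouse whose gap to the next exceeded the 95% critical value of Dixon's test, and chance alone marks about 1 in 20 groups. At 18 months, replicate 5 was the highest in both Slc25a1 (33.32 TPM, next 12.03) and Slc25a10 (10.42 TPM, next 6.697). At 22 months, replicate 5 was the highest in both Slc25a3 (1341 TPM, next 1145) and Slc25a11 (530.8 TPM, next 419.9). At 24 months, replicate 1 was the lowest in both Slc25a4 (3364 TPM, next 4129) and Slc25a28 (32.0 TPM, next 34.02), and replicate 5 was the highest in Slc25a10 (6.723 TPM, next 4.93). At 8 months, replicate 3 was the highest in Slc25a3 (1572 TPM, next 1231). The Slc25a28 gap is small in size, since the 8 mice of 24 months spanned only 32.0 to 35.81 TPM.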

How the results depend on the processing

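In the comparisons of 18, 22 and 24 with 8 months, leaving out each mouse in turn gave 0 to 0 called carriers. The range was 6 to 9 between 26 and 8 months, 11 to 17 between 28 and 8 months and 7 to 13 between 28 and 22 months, with 13 without replicate 3 of 28 months. Fits on the 2 compared ages alone gave 1 call between 24 and 8 months in place of 0, and 5 between 28 and 22 months in place of 9. Between 28 and 8 months the other settings gave 10 to 17 calls beside 14. With upper-quartile factors 17 carriers fell and 0 rose, and Slc25a28 was not called (0.30, FDR 0.0111). Over all genes, the share of higher calls between 28 and 22 months was 58.3% with TMM and 43.4% with upper-quartile factors. Of 25 settings, Slc25a1, Slc25a4, Slc25a10, Slc25a15, Slc25a23, Slc25a26, Slc25a35 and Slc25a39 passed in all, Slc25a11 and Slc25a37 in 23, Slc25a40 in 20, Slc25a28 in 16 and Slc25a14 in 9, all in the direction given. Slc25a28 was not called without replicate 2, 5 or 8 of 8 months or replicate 1, 2, 5 or 8 of 28 months (FDR up to 0.0174), Slc25a11 not without replicate 3 of 8 months (FDR 0.0103), and Slc25a40 not without replicate 1 or 2 of 28 months (FDR 0.0105 and 0.0108). Slc25a14 was lost without any of 10 mice, with FDR up to 0.0360 (without replicate 1 of 8 months). Slc25a3 passed in 5 settings. The number of paralog ratios past the threshold went from 0 to 3 when single mice were left out. Mice with the same replicate number were not paired by the labels. The correlation of their deviations ran from -0.16 to 0.155 between 8 and 28 months. It ran from 0.0163 to 0.281 between 8 and 26 months and from -0.215 to 0.314 between 22 and 28 months. Over all compared ages the lowest was -0.338 (8 and 22 months) and the highest 0.354 (8 and 24 months). The replicate block gave 15 calls between 28 and 8 months, 9 between 26 and 8 months and 10 between 28 and 22 months, and 0 paralog ratios in place of 2. The causes of these shifts were not tested.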
